A study of Homo sapiens with 48 samples.

Results

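The 52 genes described here encode the machinery of cell division: kinases and cyclins that drive entry into mitosis, the spindle checkpoint, the chromosomal passenger complex, the kinetochore, mitotic kinesins, spindle assembly and cytokinesis factors, and condensin. They were taken by name, as the rows of the count table whose gene symbol is on a list of mitosis, spindle and kinetochore genes, and they are 52 of the 27978 symbols in the table. The rows were matched by symbol alone, but the list was drawn up with earlier results of these data known. All 52 passed the filter on low counts, and the lowest count of any of them in any library was 50.

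The cells were H1975, an established human non-small cell lung cancer line with a mutated EGFR gene. They were exposed to gefitinib, a small-molecule inhibitor of the EGFR kinase, to CKI (compound kushen injection), to YFSJ, a preparation known here only by its letters, or to gefitinib together with either preparation. Unstranded paired-end RNA-seq was made from 48 libraries, 3 for each of 16 groups. The series text calls the replicates biological, but nothing says whether they came from separate cultures, so p-values measure the spread between these libraries. Untreated cells were collected at 0 h and at 24 h. Each agent was given at 2 doses, which were 50 and 75 µM for gefitinib, 1 and 2 mg/mL for CKI, and 2.5 and 5 mg/mL for YFSJ. The 8 combinations paired each gefitinib dose with each dose of CKI and with each dose of YFSJ. Treated cells were collected at 24 h. The medium held serum in all groups, and the labels name no vehicle.

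A dividing cell condenses its chromosomes, attaches each sister chromatid to spindle microtubules through a kinetochore, and holds back separation until every attachment is made. Cyclin B with CDK1 starts the process, Polo-like and Aurora kinases order its steps, and the anaphase-promoting complex ends it by marking cyclin B and securin for destruction. Most of these genes are transcribed late in the cell cycle, under activators that include FOXM1 and B-MYB, and are held down in resting cells by the DREAM complex. DREAM acts through short promoter elements called CHR, which often lie near CCAAT boxes, the sites of NF-Y. Their RNA in a bulk culture therefore falls both when fewer cells are in the late cell cycle and when each cell holds less, and these cannot be told apart here.

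Library totals ran from 16428398 to 26264162 counts, and levels are given as CPM, the usual depth-scaled count, with library sizes adjusted by TMM factors. A gene at 0 could thus hold up to 0.183 CPM in the shallowest library or 0.114 CPM in the deepest (3 counts), which allows for counting error alone. The label's catalogue number for the line belongs to the breast line MCF-7. The marker genes were mixed on the lung side. NKX2-1 had a median of 44.7 CPM and EGFR 96.5 CPM, while the surfactant genes SFTPB and SFTPC of alveolar cells had at most 6 and 4 counts in any library. CDKN2A, a gene not specific to lung, had a median of 69.6 CPM. Of the luminal breast markers, PGR had 0 counts, TFF3 at most 6, ESR1 at most 11, GATA3 at most 30 and TFF1 at most 79. In 10 libraries the liver gene ALB had 2581 to 3557 counts, against 0 to 8 in the other 38. These were all 3 with YFSJ 2.5 mg/mL alone, all 3 with CKI 2 mg/mL and gefitinib 75 µM, libraries 1 and 3 with CKI 2 mg/mL and gefitinib 50 µM, and libraries 2 and 3 with CKI 1 mg/mL and gefitinib 75 µM. The mitochondrial ribosomal RNA RNR2 held 1.22% and 1.69% of counts in libraries 1 and 2 of the 0 h group and 0.457% in library 3.

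The summed level of the 52 genes gives their course over the groups. In untreated cells it was 6766 ± 353 CPM at 0 h (SD, n = 3 here and below) and 6455 ± 103 CPM at 24 h. Gefitinib took it to 1267 ± 70.1 CPM at 50 µM and 1227 ± 24.0 CPM at 75 µM. CKI alone gave 3589 ± 100 CPM at 1 mg/mL and 2659 ± 226 CPM at 2 mg/mL, while YFSJ alone gave 6526 ± 254 CPM at 2.5 mg/mL and 6255 ± 266 CPM at 5 mg/mL. The order of the single agents was thus gefitinib lowest, CKI between, and YFSJ at the untreated level. With CKI 1 mg/mL, gefitinib gave 1705 ± 60.9 CPM at 50 µM and 2000 ± 69.5 CPM at 75 µM. With CKI 2 mg/mL it gave 2928 ± 130 CPM and 3002 ± 241 CPM. Cells given gefitinib with the higher dose of CKI therefore held more RNA of these genes than cells given gefitinib alone, and about as much as cells given CKI 2 mg/mL alone. With YFSJ 2.5 mg/mL the sums were 1087 ± 56.6 CPM and 1096 ± 103 CPM, and with YFSJ 5 mg/mL they were 1398 ± 54.4 CPM and 1051 ± 46.4 CPM, for 50 and 75 µM gefitinib in each case. The genes moved together over these groups: the median correlation of log2(CPM + 1) between pairs of the 52 genes was 0.968 over the 48 libraries, and 0.329 for deviations from the group means. These correlations are a description, since the points share libraries and treatments.

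**Figure D1:**
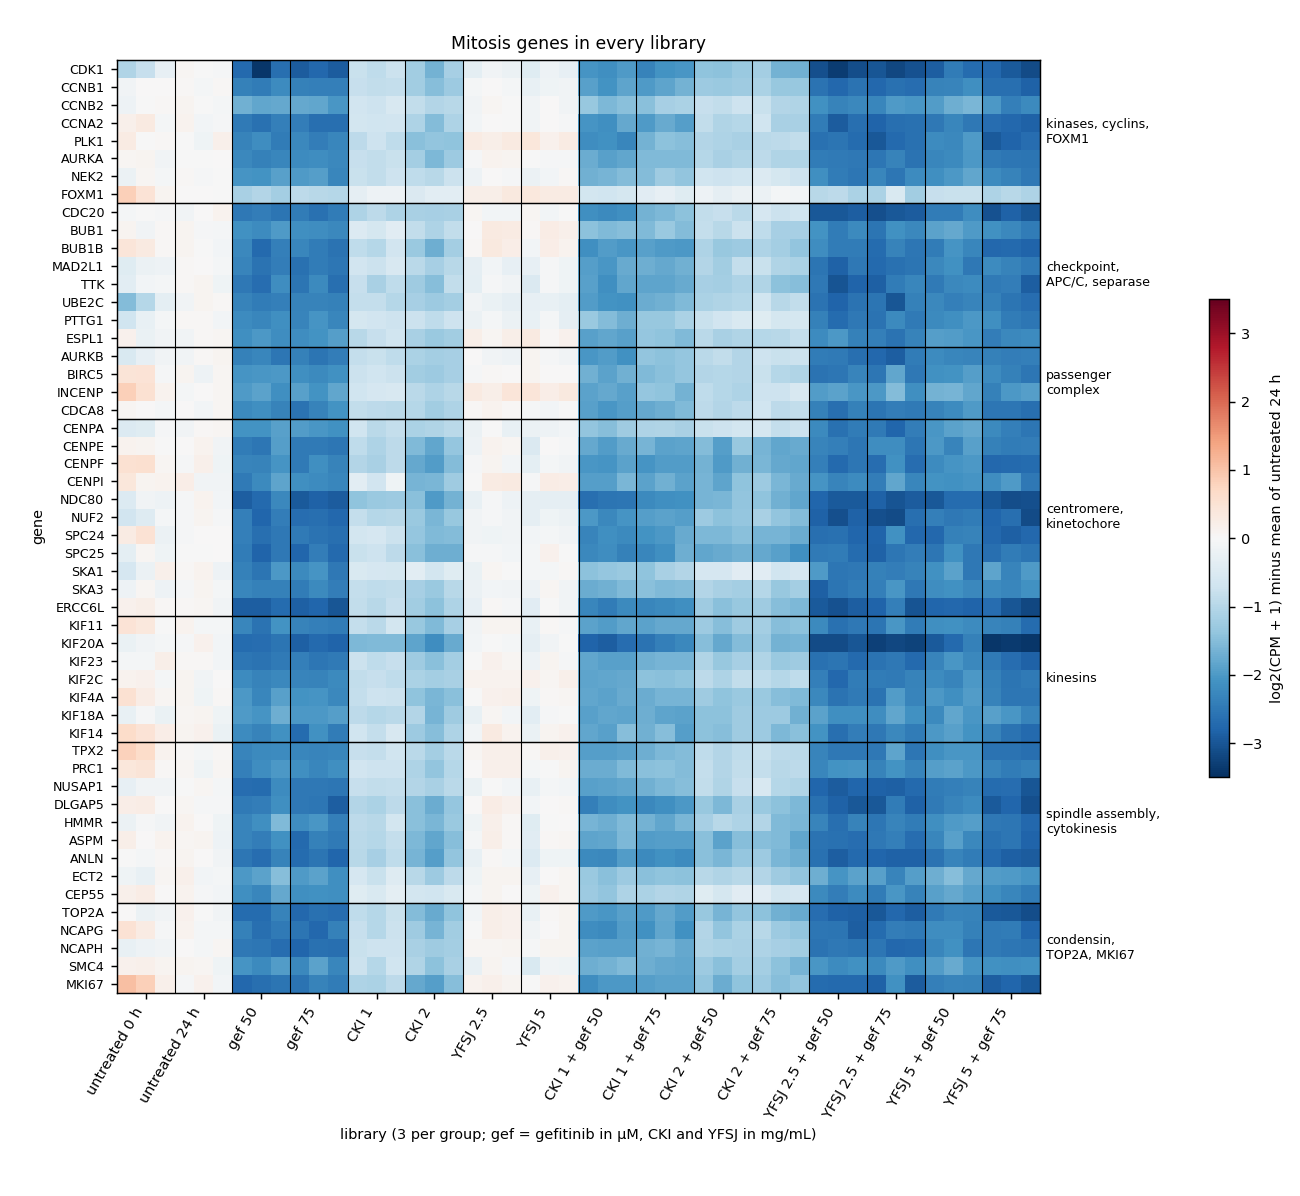
Level of each of the 52 genes (rows, by role) in each of the 48 libraries (columns, 3 per group), as log2(CPM + 1) minus the mean of the untreated 24 h libraries. The gefitinib columns are darkest blue (lower), CKI alone and CKI 2 mg/mL with gefitinib are intermediate, and YFSJ alone is near 0.

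Because these genes moved together, their promoters were read for the elements that late cell cycle genes are known to share. RefSeq promoter windows on GRCh38.p14, 300 bases from 250 before to 50 after the start of a gene, were matched for 46 of the 52 genes by symbol. There was no entry for AURKA, FOXM1, TTK, UBE2C, BIRC5 and TPX2. A gene with several windows was counted when any of them held the element, and both elements had to lie in the same window. For KIF11 and MKI67 the bases checked after the start matched no transcript of the gene, so the start used is less certain. The core of the CHR, TTTGAA, was present on either strand in 34 of the 46 (73.9%), against 18.2% of 27305 genes with a window. The CCAAT box, CCAAT, was present on either strand in 35 of 46 (76.1%), against 39.7% of all. Both were present in 26 of 46 (56.5%), against 7.26% of all. A match of letters is a description and not a binding site.

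The 120 bases before the start are shown for 8 of the genes, 1 to 2 for each role, 5′ to 3′ on the strand of the gene, with CCAAT and TTTGAA or their reverse complements ATTGG and TTCAAA in capitals. The 7 genes other than KIF2C show how the elements lie near the start, with a CHR match downstream of a CCAAT box in PLK1, KIF23 and PRC1, between a pair of them in CDC20, and a CCAAT box alone in ERCC6L within the bases shown. In CDCA8 and MKI67 a TTTGAA shares a base with an ATTGG. KIF2C is shown as a gene whose whole window holds no exact match to either, as is also so for CENPE and CENPI.

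PLK1, chr16:23678769-23678888, plus strand: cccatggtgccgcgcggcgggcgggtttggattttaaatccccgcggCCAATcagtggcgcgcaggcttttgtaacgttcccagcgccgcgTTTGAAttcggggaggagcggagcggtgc
CDC20, chr1:43358861-43358980, plus strand: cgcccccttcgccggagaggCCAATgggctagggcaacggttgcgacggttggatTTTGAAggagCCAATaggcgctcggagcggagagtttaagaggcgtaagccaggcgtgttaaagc
CDCA8, chr1:37692396-37692515, plus strand: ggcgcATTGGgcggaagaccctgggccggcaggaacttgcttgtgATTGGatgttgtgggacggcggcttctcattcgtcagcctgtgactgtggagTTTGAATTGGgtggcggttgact
ERCC6L, chrX:72239028-72239147, minus strand: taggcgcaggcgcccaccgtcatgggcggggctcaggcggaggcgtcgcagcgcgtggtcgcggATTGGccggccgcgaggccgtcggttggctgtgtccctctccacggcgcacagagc
KIF23, chr15:69414229-69414348, plus strand: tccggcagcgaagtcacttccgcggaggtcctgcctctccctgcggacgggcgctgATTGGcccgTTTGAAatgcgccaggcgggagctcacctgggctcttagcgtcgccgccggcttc
PRC1, chr15:90994536-90994655, minus strand: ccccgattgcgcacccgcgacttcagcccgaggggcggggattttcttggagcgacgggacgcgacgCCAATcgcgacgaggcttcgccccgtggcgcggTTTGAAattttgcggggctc
MKI67, chr10:128126424-128126543, minus strand: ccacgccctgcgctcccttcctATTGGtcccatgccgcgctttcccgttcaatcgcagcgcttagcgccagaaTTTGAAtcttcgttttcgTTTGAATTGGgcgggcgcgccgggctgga
KIF2C, chr1:44739717-44739836, plus strand: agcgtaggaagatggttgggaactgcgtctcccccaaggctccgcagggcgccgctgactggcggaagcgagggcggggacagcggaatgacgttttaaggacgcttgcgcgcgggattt

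Gefitinib lowered every one of the 52 genes. At 75 µM all 52 fell, with a median log2 fold change of −2.47 (range −3.17 for ERCC6L to −0.97 for FOXM1) against a median of 0.02 over all 15789 genes tested, and the median gene was left at 18.0% of its untreated level. Of all genes tested, 27.1% were called lower in this comparison (edgeR quasi-likelihood test, two-sided, adjusted p under 0.05 over all genes, the rule for every call below). The libraries of the 2 groups did not overlap for any of the 52, as was so for 62.3% of all genes tested. At 50 µM all 52 fell as well, with a median of −2.40 (−3.09 to −1.13), where 26.8% of all genes were called lower. The smallest p at 50 µM belonged to NCAPH (−2.67 ± 0.09, adjusted p = 9.21e-28), CDC20 (−2.51 ± 0.09) and AURKA (−2.33 ± 0.09). Between the 2 gefitinib doses no member was called (5 of all 15789 genes were, 0.0317%), the members' median difference was −0.06, and 2 members had an unadjusted p under 0.05. The 95% intervals of that dose difference lay between −0.66 (NDC80) and 0.50 (MKI67), and DESeq2 also called 0.

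Among the 8 kinases, cyclins and FOXM1 the median fell by 2.29 on the log2 scale at 75 µM gefitinib. CDK1, the kinase that cyclin B activates to start mitosis, stood at 133, 128 and 124 CPM in the untreated 24 h libraries and at 16, 18.4 and 16.1 CPM with gefitinib. Its log2 fold change was −2.93 ± 0.17 (SE, as for every ± after a log2 value; adjusted p = 1.97e-18), the largest of the group. FOXM1, a transcription factor that activates late cell cycle genes, had the smallest, from 91.8, 91.1 and 89.0 CPM to 48, 45.4 and 45.3 CPM (−0.97 ± 0.12, adjusted p = 1.43e-09). It kept 51.0% of its untreated level, apart from every other member, and its groups did not overlap either. FOXM1 shares 15.9% of its exon bases with ITFG2 on the opposite strand, so with unstranded libraries some of its reads may be from that gene.

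The 8 genes of the spindle checkpoint, the anaphase-promoting complex and separase fell by a median of 2.44. MAD2L1, the checkpoint protein that binds CDC20 at unattached kinetochores, went from 77.0, 76.4 and 71.8 CPM to 11.4, 12.9 and 12.3 CPM (−2.62 ± 0.12, adjusted p = 3.69e-23). ESPL1 is separase, the protease that opens cohesin at anaphase. It changed least of these genes, from 74.6, 83.5 and 84.2 CPM to 17.1, 18.3 and 20.3 CPM (−2.12 ± 0.10, adjusted p = 1.3e-21). CDC20, which activates the anaphase-promoting complex, went from 354, 390 and 424 CPM to 70.8, 63.3 and 70.9 CPM (−2.51 ± 0.09). In the chromosomal passenger complex, which corrects wrong attachments, all 4 genes fell with a median of −2.30. Its kinase AURKB went from 225, 255 and 262 CPM to 47.5, 41.4 and 45.4 CPM (−2.47 ± 0.10, adjusted p = 1.14e-24). Its scaffold INCENP went from 111, 118 and 122 CPM to 30.7, 26.7 and 32.2 CPM (−1.97 ± 0.13, adjusted p = 4.16e-17).

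The 11 centromere and kinetochore genes fell by a median of 2.65. ERCC6L (PICH), a translocase on the threads that link separating centromeres, had the largest fall of all 52 genes, from 35.1, 36.3 and 31.7 CPM to 3.87, 4.12 and 3.46 CPM (−3.17 ± 0.15, adjusted p = 1.47e-22), which left 11.1% of its untreated level. CENPA, the histone variant that marks the centromere, went from 50.8, 57.3 and 58.6 CPM to 13.5, 12.8 and 12.1 CPM (−2.12 ± 0.12, adjusted p = 3.73e-20) and was the least reduced of the 11. NDC80, the outer kinetochore protein that holds microtubules, fell by 3.11 ± 0.14. Its NDC80 complex partners SPC24 and SPC25 fell by 2.69 ± 0.14 and 2.93 ± 0.15. All 3 ended between 3.14 and 10.2 CPM in every library with 75 µM.

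Among the 7 mitotic kinesins, motor proteins that slide, cross-link or shorten microtubules, the median was −2.46. KIF20A, needed for cytokinesis, fell from 104, 120 and 101 CPM to 14.1, 15.6 and 14.6 CPM (−2.87 ± 0.12, adjusted p = 5.39e-24). KIF18A, which damps chromosome movement at plus ends, had the smallest fall of them, from 39.6, 40.3 and 34.0 CPM to 8.70, 8.60 and 9.22 CPM (−2.10 ± 0.14, adjusted p = 1.09e-16). The 9 spindle assembly and cytokinesis genes had a median of −2.31. DLGAP5, a factor that stabilizes kinetochore microtubules, fell from 76.8, 71.3 and 70.7 CPM to 12, 11.8 and 8.93 CPM (−2.74 ± 0.14, adjusted p = 2.07e-21). ECT2, the exchange factor that switches on RhoA for the contractile ring, fell from 109, 88.8 and 90.3 CPM to 23.4, 25.5 and 20.7 CPM (−2.05 ± 0.13, adjusted p = 1.3e-17).

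Condensin, topoisomerase II alpha and MKI67 (5 genes) had the lowest group median, −2.71. NCAPH, the kleisin subunit of condensin I, went from 70.7, 65.7 and 72.4 CPM to 9.37, 10.5 and 10.3 CPM (−2.79 ± 0.09, adjusted p = 6.29e-28). SMC4, an ATPase subunit shared by condensin I and II, went from 267, 261 and 226 CPM to 52, 68.0 and 50.7 CPM (−2.14 ± 0.12, adjusted p = 3.17e-19). Its exons overlap those of TRIM59 on the other strand over 18.5% of their length, and those of the condensin gene NCAPG overlap LCORL over 33.1%. MKI67, the Ki-67 proliferation marker that coats mitotic chromosomes, fell by 2.48 ± 0.16. KIF2C, whose promoter window held no exact match to TTTGAA or CCAAT, fell by 2.36 ± 0.09. A link between these elements and the fall was not tested.

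**Figure D2:**
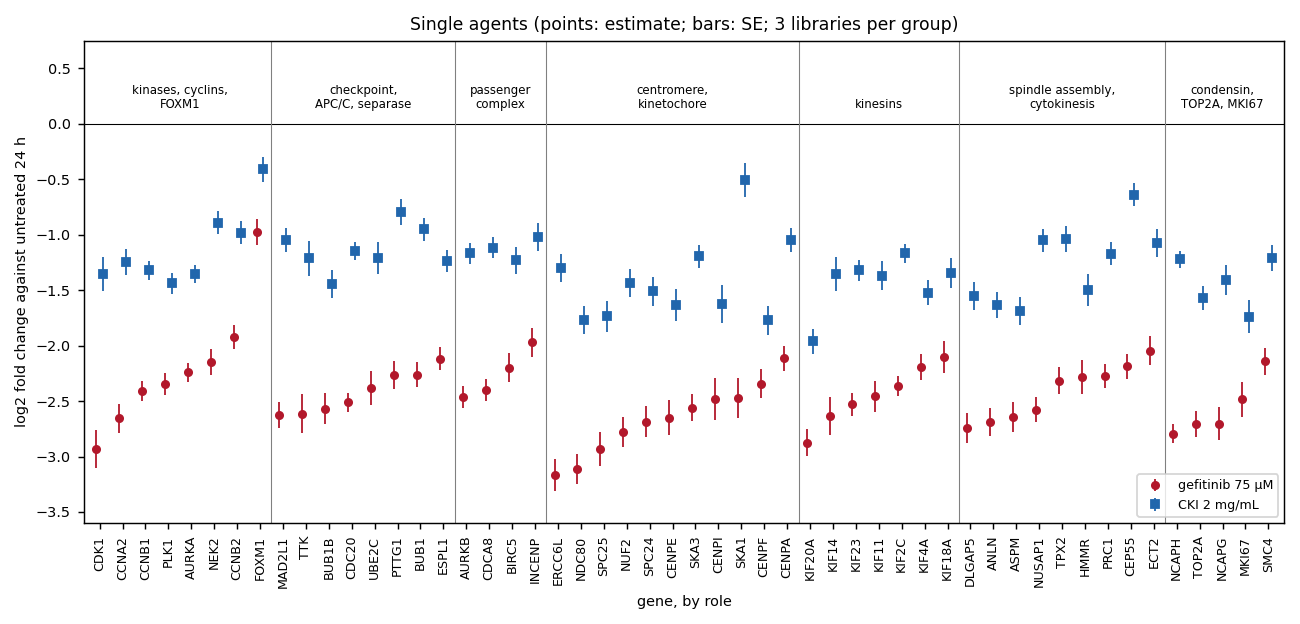
Log2 fold change of each of the 52 genes against untreated 24 h cells (points, with SE bars; 3 libraries per group) for gefitinib 75 µM (red circles) and CKI 2 mg/mL (blue squares), grouped by role. All points lie below 0; gefitinib runs from −3.17 (ERCC6L) to −0.97 (FOXM1) and CKI from −1.96 (KIF20A) to −0.41 (FOXM1).

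Other genes of the same pathways were read from 5 lists, to be set beside the 27.1% of all genes called lower and 27.6% called higher with gefitinib 75 µM. The list of other mitotic genes had 78 measured genes, of which 73 fell and 1 rose with gefitinib 75 µM (median −1.79, against 0.02 for all genes). The checkpoint ATPase gene TRIP13 (−2.31 ± 0.07) and the spindle gene SPAG5 (−2.53 ± 0.08) had the smallest p, and the phosphatase CDC25B was the 1 that rose (0.30 ± 0.09). The lists of complexes that these genes act with had smaller medians. Of 15 anaphase-promoting complex core genes with CDH1, 9 fell and 1 rose (median −0.35), led by ANAPC7 (−0.95 ± 0.09) and CDC27 (−0.97 ± 0.11), with ANAPC16 higher (0.33 ± 0.09). Of 13 genes of cohesin and its regulators, 9 fell and 1 rose (median −0.47), with ESCO2 at −2.45 ± 0.20, RAD21 at −1.05 ± 0.11 and MAU2 at 0.61 ± 0.11. Of 11 gamma-tubulin ring complex genes, which seed microtubules, 6 fell and 1 rose (median −0.57), with TUBG1 at −1.39 ± 0.11, MZT1 at −1.42 ± 0.14 and TUBG2 at 0.53 ± 0.18. The list of DREAM, MuvB, B-MYB and NF-Y subunits, with CDKN1A, had 10 of 16 lower and 1 higher (median −0.41). B-MYB (MYBL2) fell by 2.18 ± 0.12 and TFDP1 by 1.15 ± 0.07, while CDKN1A, the p21 inhibitor of cyclin-dependent kinases, rose by 2.28 ± 0.08, from 41.7 ± 2.63 CPM to 204 ± 7.43 CPM (adjusted p = 3.22e-26).

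CKI alone lowered the same machinery by less. At 2 mg/mL all 52 genes fell, with a median log2 fold change of −1.27 (KIF20A −1.96 to FOXM1 −0.41) against −0.01 for all genes, where 27.1% of all genes were called lower, and the median gene was left at 41.5% of its untreated level. At 1 mg/mL 51 of 52 fell (median −0.84), where 14.7% of all genes were called lower. The exception was FOXM1 at −0.23 ± 0.11 (adjusted p = 0.121). Both CKI groups and both gefitinib groups were set against the same untreated libraries. The difference between CKI 2 mg/mL and gefitinib 75 µM was not tested.

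KIF20A, the kinesin with the largest fall at both CKI doses, stood at 104, 120 and 101 CPM in untreated cells, 35.7, 36.7 and 36.4 CPM at 1 mg/mL (−1.58 ± 0.11, adjusted p = 4.21e-15) and 29.4, 23.3 and 31.1 CPM at 2 mg/mL (−1.96 ± 0.11, adjusted p = 1.69e-18). CDC20 stood at 184, 204 and 182 CPM at 1 mg/mL and 176, 174 and 177 CPM at 2 mg/mL, against 354 to 424 CPM untreated. Neither dose overlapped the untreated libraries for either gene. NDC80 was at 16.4, 17.7 and 18.0 CPM at 1 mg/mL (−1.37 ± 0.12), down from 43.8, 49.0 and 42.4 CPM. AURKA, the kinase that matures spindle poles, was at 94.4, 90.7 and 95.9 CPM at 1 mg/mL and 72.3, 55.3 and 67.7 CPM at 2 mg/mL (−1.35 ± 0.08 at 2 mg/mL), against 164, 166 and 168 CPM. NCAPH was at 40.3, 42.0 and 41.4 CPM and then at 31.3, 28.7 and 29.6 CPM (−1.22 ± 0.08 at 2 mg/mL). These 3 genes were lower in every CKI library than in every untreated library. The share of all genes without overlap was not counted for CKI, and with gefitinib 75 µM it was 62.3%.

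By role, the CKI 2 mg/mL medians ran from −1.14 in the 4 passenger complex genes to −1.51 in the 11 centromere and kinetochore genes. Its members were spread over a wide range. CENPF, a kinetochore protein that binds dynein regulators, fell by 1.77 ± 0.13 and NDC80 by 1.77 ± 0.12, whereas SKA1, which couples kinetochores to shortening microtubules, fell by 0.50 ± 0.16 (adjusted p = 0.00606).

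The higher CKI dose gave lower levels than the lower dose in 40 of 52 genes (median −0.46), where 17.6% of all genes were called lower, and no member was higher. CENPI, an inner kinetochore subunit, had the largest difference, from 16.6, 13.3 and 19.4 CPM to 6.39, 6.42 and 8.51 CPM (−1.21 ± 0.17, adjusted p = 4.94e-07). SPC24 went from 39.1, 40.5 and 36.4 CPM to 23.5, 20.6 and 20.9 CPM (−0.84 ± 0.13) and AURKA differed by −0.53 ± 0.08. The 12 that were not called included CDC20 (−0.11 ± 0.08, adjusted p = 0.297), FOXM1 (−0.17 ± 0.11) and SKA1 (0.10 ± 0.16). The 95% interval of the CDC20 difference ran from −0.28 to 0.05. By role, 9 of 11 centromere and kinetochore genes were called and 4 of 8 checkpoint genes.

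Of all genes, CKI 2 mg/mL lowered 27.1% and raised 24.1%. In the pathway lists, it lowered 70 of the 78 other mitotic genes and raised 0 (median −0.87), with TRIP13 at −1.24 ± 0.07 and GTSE1, a microtubule plus-end protein, at −1.52 ± 0.09. Of the anaphase-promoting complex core, 10 of 15 fell (median −0.27), with CDC23 at −0.66 ± 0.09 and ANAPC4 at −0.65 ± 0.12. In the cohesin list 5 of 13 fell and 2 rose (median −0.23), a share of lower genes not far from that of all genes. SMC1A fell by 0.69 ± 0.09 and ESCO2 by 1.11 ± 0.18, and ESCO1 rose by 0.93 ± 0.13 and NIPBL by 0.36 ± 0.12. In the gamma-tubulin list 7 of 11 fell (median −0.31), with TUBGCP5 at −0.73 ± 0.12 and TUBGCP2 at −0.36 ± 0.10. In the DREAM list 8 of 16 fell and 2 rose (median −0.27). RBBP4, a histone-binding subunit of MuvB, fell by 1.04 ± 0.10 and TFDP1 by 0.75 ± 0.07, E2F5 rose by 0.48 ± 0.14, and CDKN1A rose by 2.20 ± 0.08 to 192 ± 9.73 CPM.

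YFSJ alone left these genes near the untreated level. No member was called at 2.5 mg/mL (median 0.00, where 2.94% of all genes were called in either direction) or at 5 mg/mL (median −0.06, 6.48% of all genes). An unadjusted p under 0.05 was reached by 5 members at 2.5 mg/mL and 8 at 5 mg/mL, and DESeq2 called PLK1 at the higher dose. PLK1, the Polo-like kinase that acts from mitotic entry to exit, was at 342, 321 and 348 CPM with 2.5 mg/mL and 367, 312 and 340 CPM with 5 mg/mL, against 275, 252 and 313 CPM untreated (0.28 ± 0.09 at 5 mg/mL, adjusted p = 0.0652). The 95% intervals of the change lay between −0.53 (CDK1) and 0.57 (INCENP) at 2.5 mg/mL, and those at 5 mg/mL lay between −0.60 (CDK1) and 0.59 (INCENP) over the 52 genes. Between the YFSJ doses no member was called (median −0.06, 0.374% of all genes), 0 had an unadjusted p under 0.05, and DESeq2 called 0.

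**Figure D3:**
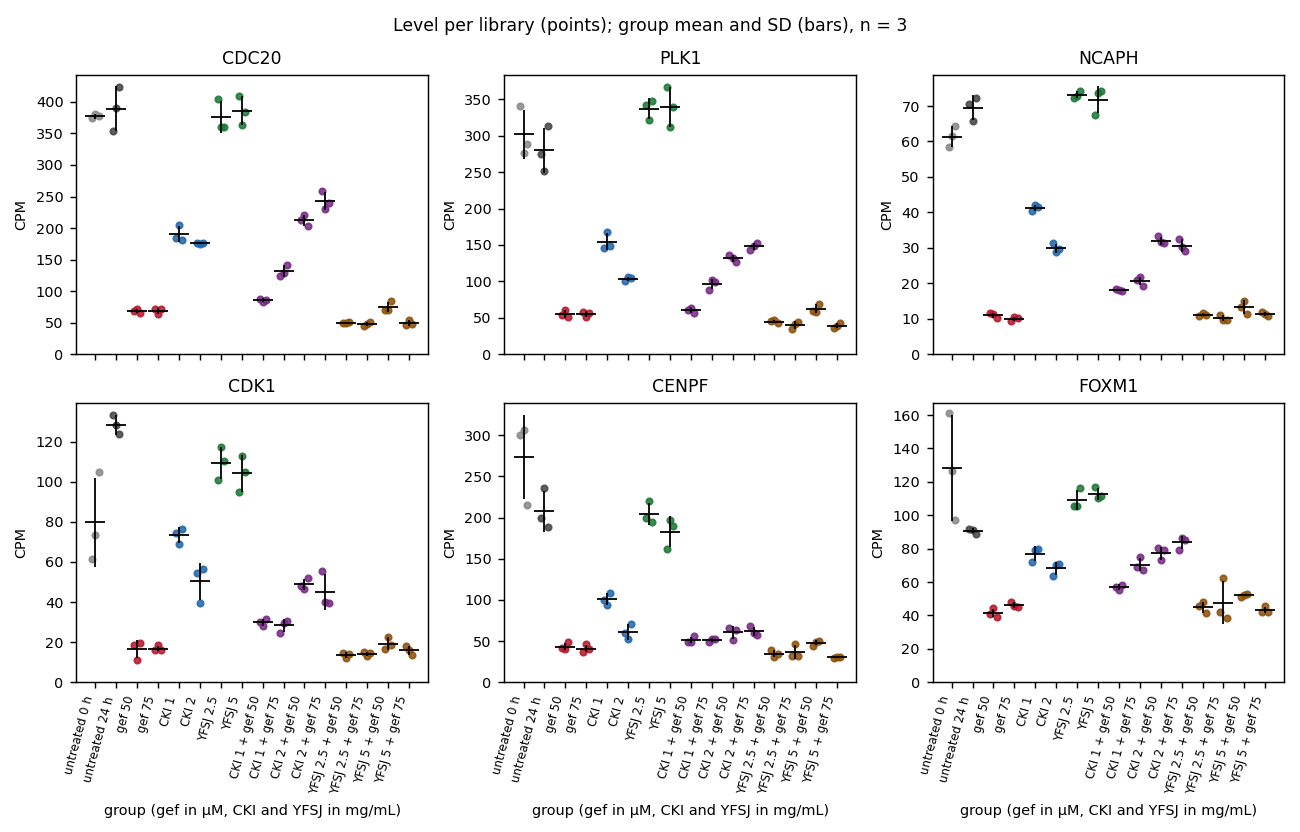
Level in CPM of 6 of the genes in every library (points) with the group mean and SD (bars, n = 3), for all 16 groups. For CDC20, PLK1 and NCAPH the purple CKI combinations rise from the gefitinib level with CKI dose, CENPF stays low in them, and FOXM1 returns to near its untreated level at CKI 2 mg/mL.

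Adding CKI to gefitinib raised these genes from the gefitinib level. With 2 mg/mL CKI, all 52 were higher than with gefitinib alone, at 75 µM (median 1.30, from 0.59 for CENPF to 1.89 for SKA1; 28.8% of all genes called higher) and at 50 µM (median 1.24; 26.6% of all genes called higher). With 1 mg/mL CKI, 50 of 52 were higher at 75 µM (median 0.72; 17.3% of all genes) and 37 of 52 at 50 µM (median 0.45; 15.6% of all genes). No member was lower in any of these 4 comparisons. The 2 that were not called with CKI 1 mg/mL and gefitinib 75 µM were CENPF (0.32 ± 0.13, adjusted p = 0.0554) and KIF18A (0.20 ± 0.15, adjusted p = 0.307). Median changes of all genes lay between −0.01 and 0.00 in the 4 comparisons.

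CDC20 shows the pattern. It was at 70.8, 63.3 and 70.9 CPM with gefitinib 75 µM, at 124, 129 and 142 CPM with CKI 1 mg/mL added, and at 258, 230 and 240 CPM with CKI 2 mg/mL added. Each CKI dose was above the one before with no overlap, which was not counted over all genes. The higher dose gave a log2 change of 1.83 ± 0.08 from gefitinib alone (adjusted p = 9.8e-22). At 50 µM the levels were 67.8, 72.2 and 64.8 CPM alone, 87.8, 82.7 and 86.6 CPM with CKI 1 mg/mL and 213, 221 and 202 CPM with CKI 2 mg/mL (1.64 ± 0.08 at the higher dose). NCAPH rose from 9.37, 10.5 and 10.3 CPM to 20.8, 21.7 and 19.3 CPM and to 32.6, 30.2 and 29.1 CPM at 75 µM gefitinib (1.61 ± 0.09 at the higher dose), and AURKB from 47.5, 41.4 and 45.4 CPM to 93.4, 90.2 and 96.7 CPM and to 149, 142 and 146 CPM (1.70 ± 0.10). SKA1, the gene with the largest rise, went from 4.90, 5.58 and 3.80 CPM to 19.9, 15.9 and 17.2 CPM with CKI 2 mg/mL. With CKI 1 mg/mL at 75 µM the log2 changes were 0.94 ± 0.08 for CDC20, 1.04 ± 0.09 for NCAPH and 1.06 ± 0.10 for AURKB. At the other end with CKI 2 mg/mL, CENPF went from 36.4, 46.1 and 40.4 CPM to 68.0, 59.3 and 57.9 CPM.

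CEP55, a midbody protein that recruits the abscission machinery, and KIF23, a centralspindlin kinesin, were with NCAPH the members with the smallest p when CKI 1 mg/mL was added to gefitinib 50 µM (0.84 ± 0.11, 0.69 ± 0.10 and 0.72 ± 0.09). In that comparison KIF20A was at −0.14 (adjusted p = 0.401), NDC80 at 0.02 and KIF18A at 0.06. With CKI 2 mg/mL at 50 µM, NCAPH rose by 1.55 ± 0.09, and KIF2C, a kinesin that takes microtubules apart, rose by 1.38 ± 0.09 from 17.2, 15.7 and 16.6 CPM to 43.8, 38.9 and 45.8 CPM. By role, the medians with CKI 2 mg/mL and gefitinib 75 µM against gefitinib alone ran from 1.08 in the condensin group to 1.43 in the passenger complex and in the checkpoint group. In the other mitotic genes 69 of 78 rose and 1 fell (median 0.98), where 28.8% of all genes rose and 29.4% fell. The other lists were mixed. The anaphase-promoting complex list had 5 of 15 higher and 5 lower, cohesin 6 of 13 and 2, and gamma-tubulin 4 of 11 and 2. In the DREAM list 8 of 16 rose and 5 fell (median 0.27). MYBL2 rose by 1.59 ± 0.11 and LIN54 by 1.25 ± 0.13, while RBL2 fell by 1.20 ± 0.12 and RBBP4 by 0.45 ± 0.10. CDKN1A was lower by a small amount, at 179 ± 6.0 CPM against 204 ± 7.43 CPM (−0.18 ± 0.08, adjusted p = 0.0389).

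Library marks moved with these groups. RNR2 held 1.39% to 1.56% of counts with CKI 2 mg/mL and gefitinib 75 µM, 1.13% to 1.32% with 50 µM, 0.674% to 0.886% with gefitinib 75 µM alone and 0.919% to 1.16% with CKI 2 mg/mL alone, and its part in the rise was not tested. With a term for the 10 libraries that hold ALB, 50 of 52 genes were still called at each gefitinib dose with CKI 2 mg/mL. All libraries with CKI 2 mg/mL and gefitinib 75 µM hold ALB. For them the term was therefore set by other groups, those with libraries both with and without ALB. The lone library without ALB of the group with CKI 2 mg/mL and gefitinib 50 µM had 221 CPM of CDC20 and 31.5 CPM of NCAPH, beside 213 and 202 CPM and 33.3 and 31.2 CPM in those with it. Its summed level of the 52 genes was the lowest of its group, at 2778 CPM beside 2996 and 3011 CPM. With CKI 1 mg/mL and gefitinib 75 µM, the library without ALB was also lowest, at 1921 CPM beside 2030 and 2050 CPM. A part of ALB in these sums was not tested.

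Against untreated cells at 24 h the combinations stayed low to different degrees. With CKI 1 mg/mL all 52 fell with gefitinib 50 µM (median −1.94; 27.8% of all genes called lower) and with 75 µM (median −1.75; 30.4%). With CKI 2 mg/mL 51 fell with 50 µM (median −1.15; 30.4%) and 51 with 75 µM (median −1.23; 32.5%). The exception in both was FOXM1, at 80.2, 72.9 and 79.0 CPM with 50 µM (−0.23, adjusted p = 0.0801) and 79.1, 86.6 and 85.4 CPM with 75 µM (−0.12, adjusted p = 0.383), against 91.8, 91.1 and 89.0 CPM untreated. SPC25, a stalk subunit of the NDC80 complex, was the lowest relative to untreated cells with CKI 2 mg/mL and gefitinib 75 µM, at 7.25, 6.64 and 5.42 CPM against 27.2, 27.3 and 27.8 CPM (−2.09 ± 0.14, adjusted p = 6.92e-17). TOP2A, which untangles sister DNA, was at 152, 128 and 120 CPM against 454, 406 and 377 CPM (−1.63 ± 0.11) and NCAPH differed by −1.18 ± 0.08. With CKI 1 mg/mL, KIF20A stayed lowest, at −2.86 ± 0.12 with 50 µM and −2.46 ± 0.12 with 75 µM, while CDC20 was at −2.18 ± 0.08 with 50 µM and NCAPH at −1.95 ± 0.08 and −1.76 ± 0.08. The cyclin B1 gene CCNB1 was at 87.7, 96.3 and 110 CPM with CKI 1 mg/mL and gefitinib 75 µM, against 356, 328 and 358 CPM untreated (−1.83 ± 0.09), and at 144, 140 and 145 CPM with CKI 2 mg/mL and gefitinib 50 µM (−1.28 ± 0.09). In that last group KIF20A was at −1.62 ± 0.11 and NCAPH at −1.12 ± 0.08.

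Gefitinib was also compared with CKI alone as the starting point, in comparisons added after seeing the data. Added to CKI 1 mg/mL, gefitinib lowered all 52 genes at 50 µM (median −1.09; 19.8% of all genes called lower) and 51 at 75 µM (median −0.89; 24.2%), the exception being FOXM1 (−0.13, adjusted p = 0.354). NCAPH fell by 1.19 ± 0.08 and 1.00 ± 0.08 there. At 50 µM PLK1 fell by 1.35 ± 0.10 and CDC20 by 1.15 ± 0.08, and at 75 µM CCNB1 fell by 0.99 ± 0.09 and ERCC6L by 1.47 ± 0.13. Added to CKI 2 mg/mL, gefitinib lowered none of the 52. Of all calls in these comparisons, 57.0% were higher at 50 µM and 51.7% at 75 µM, and the rest were lower. At 50 µM lower calls over all genes were thus fewer than the 6.31% called higher, so a count of 0 members there says little. At 75 µM lower calls over all genes were nearly as many as the 15.6% called higher. At 50 µM 4 rose (median 0.13; 6.31% of all genes called higher): PLK1 by 0.35 ± 0.10, AURKA by 0.28 ± 0.08, CDC20 by 0.27 ± 0.08 and KIF20A by 0.34 ± 0.11. A count of 4 in 52 is close to the share of all genes. At 75 µM 13 rose (median 0.08; 15.6% of all genes called higher). CDC20 rose from 176, 174 and 177 CPM to 258, 230 and 240 CPM (0.47 ± 0.08), PLK1 from 100, 106 and 104 CPM to 143, 148 and 152 CPM (0.52 ± 0.10) and AURKB from 114, 107 and 110 CPM to 149, 142 and 146 CPM (0.40 ± 0.09). SPC25 was at −0.35 (adjusted p = 0.0593). With the ALB term the counts were 0 at 50 µM and 3 at 75 µM (PLK1, CDC20 and AURKB). All 3 libraries with CKI 2 mg/mL and gefitinib 75 µM hold ALB and none with CKI 2 mg/mL alone does. Leaving out single libraries left 4 of the 13 without library 2 of CKI 2 mg/mL, and 7 without its library 1 or without library 3 of the combination. Of the 4 at 50 µM, 1 was left without library 1 or library 2 of CKI 2 mg/mL and 0 without library 1 of the combination.

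Raising CKI from 1 to 2 mg/mL in the presence of gefitinib was followed by higher levels, while without gefitinib 40 genes were lower at the higher dose. Whether the 2 steps differ was not tested by itself. With gefitinib 50 µM 47 of 52 rose (median 0.77; 19.4% of all genes called higher), with CDC20 at 1.31 ± 0.08, AURKB at 1.10 ± 0.09 and PLK1 at 1.12 ± 0.10. With 75 µM 42 of 52 rose (median 0.55; 19.4%), with CDC20 at 0.89 ± 0.08, KIF20A at 0.93 ± 0.11 and CDCA8, the borealin subunit of the passenger complex, at 0.89 ± 0.09. No member fell in either comparison.

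**Figure D4:**
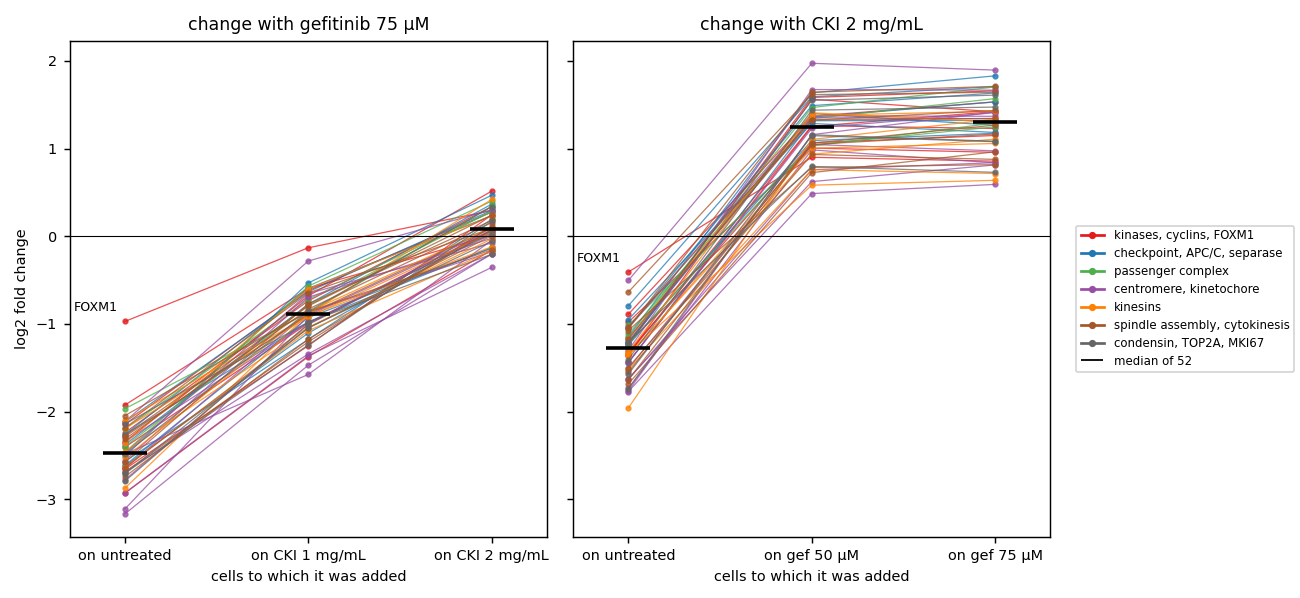
Log2 fold change of each of the 52 genes (lines joining points, coloured by role; black bar, median of the 52) when gefitinib 75 µM was added to untreated cells or to cells on CKI 1 or 2 mg/mL (left), and when CKI 2 mg/mL was added to untreated cells or to cells on gefitinib 50 or 75 µM (right). The left medians go from −2.47 to −0.89 to 0.08 and the right ones from −1.27 to 1.24 and 1.30.

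The interaction tests put this in 1 number per gene: the change with both agents minus the sum of the changes with each, averaged over the 4 dose pairs. The dose pairs were not tested singly, so the mean need not hold for each pair. For CKI with gefitinib all 52 interactions were above 0 (median 2.03, from 1.03 for FOXM1 to 2.45 for KIF20A), where 20% of all genes had a positive call and the median over all genes was 0.00. A value above 0 means that the level with both agents was above that given by adding the log2 changes of each. CDC20 had 2.28 ± 0.09 (adjusted p = 9.09e-25), NCAPH 2.22 ± 0.09 (adjusted p = 9.35e-25) and KIF2C 2.06 ± 0.09 (adjusted p = 2.24e-23). By role the medians lay between 1.90 (kinesins) and 2.13 (condensin group). For YFSJ with gefitinib 1 of 52 was called, PLK1, and it was below 0 (−0.54 ± 0.10, adjusted p = 0.00156; 1.05% of all genes had a negative call), a count close to the share of all genes. The members' median was −0.08, and 9 members had an unadjusted p under 0.05. The difference between the 2 interactions was above 0 in all 52 (median 2.03; 22.8% of all genes higher), with CDC20 at 2.57 ± 0.07 (adjusted p = 7.91e-30), KIF2C at 2.31 ± 0.07 and NCAPH at 2.16 ± 0.07. The doses of the 2 preparations differ, so this compares them as dosed here.

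**Figure D5:**
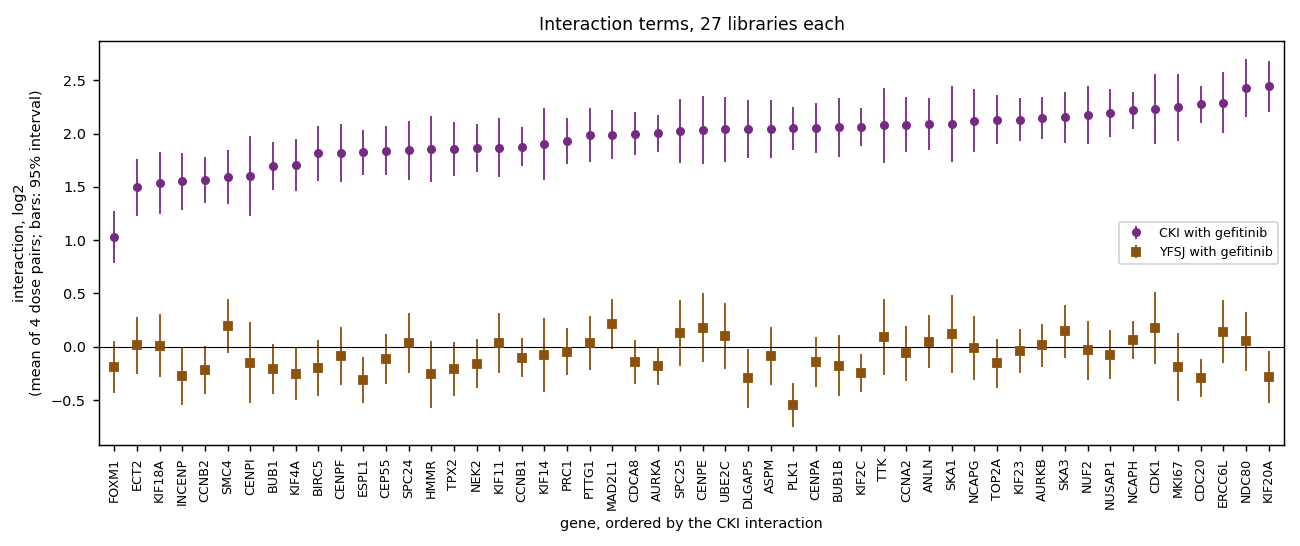
Interaction with gefitinib for each of the 52 genes, in log2 units with 95% intervals, for CKI (purple circles) and YFSJ (brown squares), ordered by the CKI value. The CKI values run from 1.03 (FOXM1) to 2.45 (KIF20A) and the YFSJ values lie around 0, lowest for PLK1 at −0.54.

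Adding YFSJ to gefitinib moved few members, and those called were lower. With YFSJ 2.5 mg/mL, CDC20 alone was called at gefitinib 50 µM, from 67.8, 72.2 and 64.8 CPM to 48.9, 48.8 and 51.4 CPM (−0.46 ± 0.08, adjusted p = 0.00577; 0.0253% of all genes called lower). At 75 µM 5 were called lower (0.836% of all genes). They were CDC20, from 70.8, 63.3 and 70.9 CPM to 45.0, 48.4 and 50.4 CPM (−0.51 ± 0.08), PLK1 (−0.45 ± 0.10), CENPA (−0.56 ± 0.13), KIF20A (−0.48 ± 0.13) and ESPL1 (−0.39 ± 0.11). With YFSJ 5 mg/mL at 75 µM 5 were again lower (1.67% of all genes): CDC20 at 45.9, 54.2 and 48 CPM (−0.47 ± 0.08), PLK1 at 35.3, 39.3 and 42.7 CPM against 57.7, 51.0 and 56.8 CPM (−0.50 ± 0.10), KIF20A (−0.64 ± 0.13), CCNB1 (−0.33 ± 0.09) and AURKA (−0.32 ± 0.09). With YFSJ 5 mg/mL at 50 µM none was called (0.937% of all genes in either direction), the median was 0.14, 7 members had an unadjusted p under 0.05 and DESeq2 called 0. The other 3 medians were below 0, at −0.21, −0.13 and −0.18. Fitted on only the libraries compared, no member was called with YFSJ 2.5 mg/mL at either gefitinib dose. Leaving out library 2 of gefitinib 50 µM, or library 1 or 2 of its combination with YFSJ 2.5 mg/mL, ended the CDC20 call there. At 75 µM, the 5 calls with YFSJ 2.5 mg/mL became 1, 3 and 2 without libraries 1, 2 and 3 of gefitinib alone and 1 without library 2 of the combination. The 5 with YFSJ 5 mg/mL became 3 without library 1 or 2 of gefitinib or library 2 or 3 of the combination. Leaving out library 3 of the combination of YFSJ 5 mg/mL and gefitinib 50 µM gave 2 calls there.

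Relative to untreated cells, all 52 genes fell in each of the 4 YFSJ combinations. The medians were −2.58 and −2.63 with YFSJ 2.5 mg/mL at 50 and 75 µM gefitinib (27.8% and 26.5% of all genes called lower), and −2.24 and −2.62 with 5 mg/mL (26.6% and 26.1%). CDC20 and NCAPH were among the 3 genes with the smallest p in each. With YFSJ 2.5 mg/mL they were at −2.97 ± 0.09 and −2.64 ± 0.09 at 50 µM, and at −3.02 ± 0.09 and −2.78 ± 0.09 at 75 µM. With YFSJ 5 mg/mL they were at −2.37 ± 0.09 and −2.39 ± 0.08, and at −2.98 ± 0.09 and −2.63 ± 0.09. The third gene was KIF2C (−2.61 ± 0.09) with YFSJ 2.5 mg/mL and gefitinib 50 µM, AURKA (−2.21 ± 0.09) with YFSJ 5 mg/mL and 50 µM, and CCNB1 at 75 µM with either YFSJ dose (−2.70 ± 0.09 and −2.73 ± 0.09). Library 2 of the group with YFSJ 2.5 mg/mL and gefitinib 75 µM held 2.18% RNR2, and in it FOXM1 was at 62.6 CPM beside 41.9 and 38.6 CPM and MKI67 at 58.3 CPM beside 34.9 and 33.5 CPM.

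Between 0 h and 24 h without treatment the members split. At 24 h 6 were higher and 8 lower (median −0.01). Of all genes 25.2% were called, 10.8% higher and 14.4% lower, so the members' shares were close to the background. UBE2C, the ubiquitin-conjugating enzyme of the anaphase-promoting complex, was at 88.9, 127 and 203 CPM at 0 h and 234, 272 and 261 CPM at 24 h (0.87 ± 0.14, adjusted p = 4.34e-05). MKI67 was at 537, 458 and 290 CPM and then 249, 286 and 238 CPM (−0.73 ± 0.14, adjusted p = 0.000363). CDK1 was at 61.7, 73.3 and 105 CPM and then 133, 128 and 124 CPM (0.68 ± 0.15). The third 0 h library was nearest to the 24 h libraries for all 3 of these genes. TPX2, which targets AURKA to the spindle, was at −0.55 ± 0.12, and FOXM1 went from 161, 126 and 97.4 CPM to 91.8, 91.1 and 89.0 CPM (−0.50 ± 0.11). AURKB (0.30 ± 0.09), the kinetochore gene NUF2 (0.38 ± 0.12) and CENPA (0.32 ± 0.11) were higher at 24 h. Without libraries 1 and 2 of the 0 h group, which have the higher RNR2 shares, no member was called (0 at an adjusted p under 0.05, with the lone 0 h library taken to vary like the other groups). Leaving out only library 1, 2 or 3 of that group gave 4, 8 and 22 calls, and leaving out library 2 or 3 of the 24 h group gave 8 and 9. With library totals the balance turned to 8 higher and 4 lower.

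Some members share sequence with other genes, and these libraries do not keep strand. The exon overlaps given here and above are from GENCODE exons on GRCh38, pooled over all transcripts of a gene. The authors' annotation on hg19 is not given in the sources used here, so shares in the counted gene models may differ. On the same strand, exons of NUSAP1 overlap AC087721.2 over 62.2% of their length and those of PRC1 overlap AC068831.7 over 57.6%; neither of these 2 names is in the count table. Exons of PRC1 also overlap an antisense gene over 7.35%, those of PLK1 overlap the antisense gene AC008870.3 over 11.6%, and those of CCNA2 overlap EXOSC9 on the opposite strand over 9.08%. Also on the same strand, BUB1B overlaps the BUB1B-PAK6 readthrough gene over 10.2% and CENPA overlaps SLC35F6 over 6.96%. How the authors' counting divided such reads is not given in the sources used here. Near-identical copies held few counts: PTTG2 had at most 4 and PTTG3P at most 3 in any library, where PTTG1 (securin) had at least 322, and KIF4B had at most 7, where KIF4A had at least 261.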

How the data were processed

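RNA was extracted with a spin-column kit and made into unstranded paired-end libraries, per the labels' protocols. The authors trimmed reads with Trim Galore 0.4.2 and aligned them with STAR 2.5.3a to hg19, and edgeR is also named, per the submitters' processing notes. They deposited raw counts per gene symbol for 48 libraries. The counting tool, annotation and strand setting are not given in the sources used here.

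From these counts, genes were filtered with filterByExpr (minimum count 10, minimum total 15), which kept 15789 of 27978 genes and 99.9684% of counts, and scaled by TMM. One edgeR 4.0.16 quasi-likelihood fit (R 4.3.3, limma 3.58.1) over all 16 groups, with 32 residual degrees of freedom and a common coefficient of variation of 0.102, gave every comparison as a contrast. Tests were two-sided, p-values were adjusted by Benjamini-Hochberg over all 15789 genes, and an adjusted p under 0.05 was a call. The standard error is the log2 fold change divided by the square root of F. The scripts were tested on simulated data.

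The members, role groups and pathway lists were chosen with earlier results of these data known. The naming rule gives, in gefitinib 75 µM against untreated cells, the member with the largest and the smallest change of each role group. In every other comparison it gives the 3 called members with the smallest p in each direction and up to 5 called against the main direction, and in each pathway list the 2 called genes with the smallest p in each direction. Other genes named, and 7 contrasts (gefitinib added to CKI, CKI doses under gefitinib, and CKI minus YFSJ interactions), were chosen after values were seen. Alternatives were other scalings, no filter, DESeq2 1.42.0, fits on only the libraries compared, a replicate block, an ALB term and leaving out each library. Replicates differed beyond counting noise (chi-square per gene 3.63 to 65.1), so none was merged.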

Additional observations from a re-analysis of the deposited data

Results flagged for a closer look

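The effects of gefitinib with and without CKI differed in an interaction test for 52 of the 52 genes (20% of all genes had a positive call). The test (edgeR, 27 libraries) took the mean over the 4 dose pairs. CDC20 was at 2.28, NCAPH at 2.22 and KIF2C at 2.06 on the log2 scale. For YFSJ the same test called 1 of the 52, PLK1 at −0.54, where 1.05% of all genes had a negative call, so the count is close to the background. The CKI and YFSJ interactions, at the doses used, differed from each other in 52 of 52 genes (22.8% of all genes higher), with CDC20 at 2.57, KIF2C at 2.31 and NCAPH at 2.16.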

How the results depend on the processing

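Of the counts of called members over all comparisons and alternatives, 481 stayed within 1.5 times the value reported, 30 fell below and 16 rose above that, and 1 turned direction; of the single-gene values 1455 kept their call, 53 lost it and 0 turned. The 52 calls for gefitinib alone at either dose and for the interaction of CKI and gefitinib were made under every alternative run. For 24 h against 0 h (14 called) the count was 12 with library totals, where more rose than fell, 0 with only the libraries compared, 0 without libraries 1 and 2 at 0 h, and 4 to 22 leaving out single libraries. With library totals it was 1 for YFSJ 2.5 mg/mL and 1 for YFSJ 5 mg/mL alone (PLK1 in both; 0 reported), 3 for YFSJ 2.5 mg/mL added to gefitinib 75 µM (5), 2 for the interaction of YFSJ and gefitinib (1) and 6 for gefitinib 75 µM added to CKI 2 mg/mL (13). With no filter it was 3 for YFSJ 5 mg/mL added to gefitinib 75 µM (5). With the ALB term it was 2 for YFSJ 2.5 mg/mL added to gefitinib 50 µM (1), and 0 and 3 for gefitinib 50 and 75 µM added to CKI 2 mg/mL (4 and 13). With only the libraries compared it was 2 for YFSJ 5 mg/mL alone (FOXM1 and INCENP), 0 for YFSJ 2.5 mg/mL added to gefitinib at 50 µM and 0 at 75 µM, and 9 for YFSJ 5 mg/mL added to 75 µM. With DESeq2 it was 1 for YFSJ 5 mg/mL alone, 2 for YFSJ 2.5 mg/mL added to gefitinib 50 µM, and 2 for the interaction of YFSJ and gefitinib. Leaving out single libraries gave 0 to 1 for YFSJ 5 mg/mL alone, 1 to 2 for the YFSJ interaction, 0 to 1 and 1 to 6 for YFSJ 2.5 mg/mL added to gefitinib 50 and 75 µM, 0 to 2 and 3 to 4 for YFSJ 5 mg/mL added to them, and 0 to 3 and 4 to 10 for gefitinib 50 and 75 µM added to CKI 2 mg/mL; the 2 libraries left are taken to vary like the other groups. The cause of these changes was not tested.

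Same-numbered libraries did not deviate together (median correlation −0.0173 over 360 pairs, from −0.543 to 0.613, against 0.00558 for different numbers). With the replicate number as a block the count was 13 for 24 h against 0 h, 50 for CKI 1 mg/mL alone, 49 for CKI 1 mg/mL added to gefitinib 75 µM, 4 for YFSJ 2.5 mg/mL added to gefitinib 75 µM and 5 for gefitinib 50 µM added to CKI 2 mg/mL, and unchanged elsewhere (52 for gefitinib 75 µM and CKI 2 mg/mL). Library totals moved the median of all genes by up to 0.23 (CKI 1 mg/mL with gefitinib 50 µM against untreated) and the members with it. The share of all calls that were higher went from 47.1% to 68.9% for CKI 2 mg/mL, from 50.8% to 61.1% for gefitinib 50 µM, from 46.3% to 69.8% between the CKI doses and from 48.9% to 71.0% for CKI 1 mg/mL added to gefitinib 50 µM. Depth was not limiting for any of the 52 genes, whose lowest count was 50.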
